A study of Mus musculus with 6 samples.

Results

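The glial fibrillary acidic protein gene Gfap and 9 other genes that astrocytes raise when they become reactive were followed in single cells of the mouse amygdala. The 10 genes (Gfap, Vim, Serpina3n, Lcn2, Cd44, Osmr, C4b, Cp, Timp1 and H2-D1) were listed by name out of 32285 genes in the matrices, of which 23747 had at least 1 UMI (unique molecular identifier, 1 counted RNA molecule) and 9 of the 10 did. They were measured in astrocytes, taken as barcodes with at least 20 UMIs of Slc1a2 and Slc1a3 together and at most 3 of Vtn and Rgs5, and in pericytes, taken as barcodes with at least 10 UMIs of Vtn and Rgs5 and at most 5 of Slc1a2 and Slc1a3. These 4 genes are none of the 10.

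Cells came from wildtype male C57BL/6N mice, and amygdala tissue was taken 90 min after behaviour. NoFC mice entered the chamber without foot shocks, and FC mice received foot shocks there. NoFR mice were conditioned and then stayed in the home cage. FR mice were conditioned and put back into the chamber a day later, so that NoFR and FR mice share the earlier conditioning. The paper places NoFR tissue a day after conditioning, without recall, so NoFR mice had no chamber session 90 min before. Tissue was dissociated with papain in the presence of inhibitors of transcription and translation, and cells were stained for sorting with antibodies named CD11b, CD45, O1 and ASCA2, the last against an astrocyte surface antigen. The sorted cells were pooled into 3 libraries from 16 mice, 4 of each group, with an antibody hashtag per mouse; every group gave 2 mice to library 1, whereas library 2 had no NoFR mouse (2 FC, 1 FR, 1 NoFC) and library 3 no FC mouse (1 FR, 1 NoFC, 2 NoFR). Each library is a pool of different mice, so p-values over libraries measure the spread between 3 pools. The age of the mice is not given in the labels.

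Gfap encodes the intermediate filament that defines the astrocyte cytoskeleton, and it is abundant in fibrous astrocytes of white matter and of the brain surface and sparse in most protoplasmic astrocytes of grey matter. After injury, inflammation or ageing, astrocytes raise Gfap together with vimentin (Vim), the protease inhibitor Serpina3n, complement component 4 (C4b), lipocalin 2 (Lcn2) and the oncostatin M receptor (Osmr), whose gp130 partner signals through STAT3. Several of these genes are also made by cells of vessel walls, so a reactive signature in a mixed sample need not come from astrocytes.

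Gfap and Serpina3n were seen in astrocytes and not in pericytes, whereas Cp was high in pericytes and low in astrocytes. The sequences just before the transcription start are given for these genes. They are RefSeq sequences on GRCm38.p6, 250 bases each, read 5′ to 3′ on the strand of the gene, at chr11:102897201-102897450 (minus strand), chr12:104406458-104406707 (plus strand) and chr3:19956804-19957053 (plus strand, the upstream start of 2 listed for Cp). Capitals mark the letters TGANTCA, an AP-1 type motif, found 177 bases before the start of Cp.
Gfap: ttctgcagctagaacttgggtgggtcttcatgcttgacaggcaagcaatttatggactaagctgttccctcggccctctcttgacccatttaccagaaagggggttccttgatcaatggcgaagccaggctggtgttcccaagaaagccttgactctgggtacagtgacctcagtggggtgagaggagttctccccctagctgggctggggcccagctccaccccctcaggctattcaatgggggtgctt
Serpina3n: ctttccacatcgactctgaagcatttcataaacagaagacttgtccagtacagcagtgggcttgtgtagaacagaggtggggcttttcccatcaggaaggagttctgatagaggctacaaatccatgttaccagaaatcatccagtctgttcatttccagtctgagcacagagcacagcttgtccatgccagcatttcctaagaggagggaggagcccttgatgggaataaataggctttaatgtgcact
Cp: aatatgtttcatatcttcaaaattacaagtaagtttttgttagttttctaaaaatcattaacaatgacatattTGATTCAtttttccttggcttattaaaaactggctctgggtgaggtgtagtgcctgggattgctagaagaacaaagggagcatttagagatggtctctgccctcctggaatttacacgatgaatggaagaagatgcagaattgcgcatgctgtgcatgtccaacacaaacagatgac

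Of the 10 genes, 9 had a RefSeq start in the table used, with 10 windows of 250 bases before a start. Of these windows, 5 overlapped no annotated untranslated region. The Vim and H2-D1 windows and the downstream window of Cp did overlap one. Both strands were searched for 5 motifs. TGANTCA was in 1 of the 10 windows and in 6.75% of all 32851 windows. TATAAA was in 3 (Vim, H2-D1 and the downstream window of Cp) against 12.4% of all windows, GAANNGAAA, an interferon type motif, in 1 (H2-D1) against 6.31%, and an NF-kB motif in 2 (Vim and H2-D1) against 5.00%. No match of one motif overlapped a match of another. TTCNNNGAA, the STAT motif, was in none of the 10 and in 7.02% of all windows. A match describes these letters and is no evidence of binding.

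The 3 libraries held 5287, 3631 and 4628 barcodes with 42350059, 31700569 and 33368825 gene UMIs. The gates took 8757 astrocytes (3557, 2503 and 2697 per library, median UMIs 9667, 10281 and 9832) and 2260 pericytes (880, 664 and 716, median UMIs 4833, 5205.5 and 5028.5), and 2529 barcodes met neither gate (median 761 UMIs). Although all libraries were labelled astrocyte, pericytes made up 16.7% of barcodes. Levels are given as CPM (UMIs of a gene among all gene UMIs of the class, scaled to 1000000). The 8 astrocyte markers summed to between 19539 and 20121 CPM in astrocytes and between 885 and 984 in pericytes. The 7 pericyte markers summed to between 24978 and 25160 CPM in pericytes and between 78.8 and 90.2 in astrocytes. None of either list was at 0. The lists include the gating genes Slc1a2 and Slc1a3, or Vtn and Rgs5, so these sums were partly set by the gates. Slc1a2 alone was at 8483 CPM in astrocytes and Slc1a3 at 3875. The marker sums are thus no independent check of the classes. Pericytes also held 749 to 783 CPM of 4 oligodendrocyte precursor markers (Pdgfra, Cspg4, Vcan and Olig1). Their 6 neuron markers (Snap25, Syt1, Rbfox3, Slc17a7, Gad1 and Meg3) summed to 325 to 366 CPM. These sums were not split by gene and do not show which cells the UMIs came from. No doublet caller was run, and 18 barcode sequences occurred in more than 1 library.

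The 10 genes divided between the classes. Gfap, Serpina3n and C4b were higher in astrocytes, and Vim, Osmr, Cp and H2-D1 were higher in pericytes. Cd44 did not differ beyond the spread between libraries, Timp1 was too sparse to test and Lcn2 was not detected in any barcode. Across all genes 12230 of 15361 tested (79.6%) passed an adjusted p under 0.05 in edgeR's quasi-likelihood test on sums per library with library as a block, so a call by itself says little about these genes, and 7 of the 8 tested were called. The same test called 42.8% of genes higher and 36.9% lower in astrocytes.

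**Figure D1:**
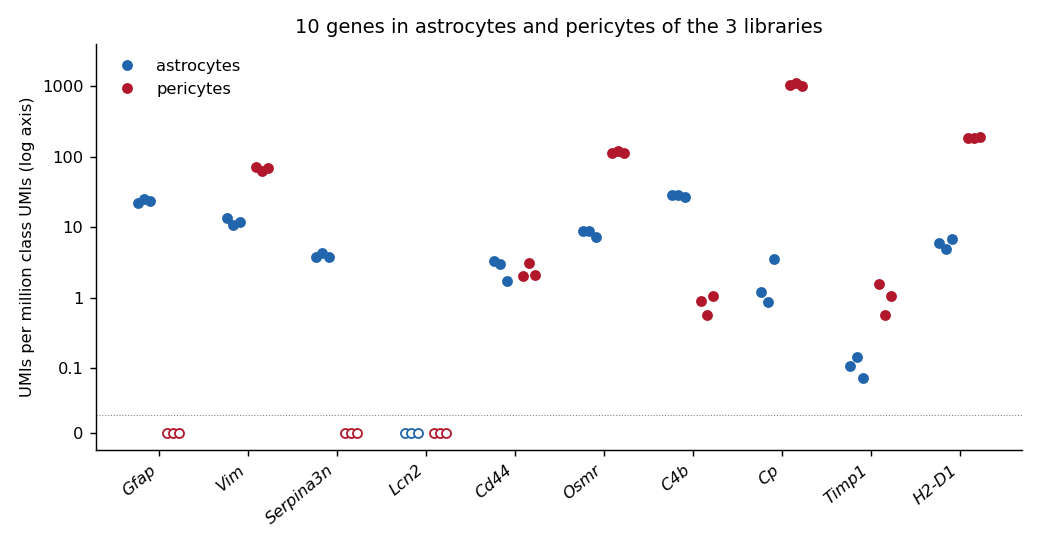
Level of each of the 10 genes (y axis, CPM, log axis with 0 drawn below the dotted line as open circles) in astrocytes (blue) and pericytes (red), 1 point per library in the order 1, 2, 3. Gfap and Serpina3n lie at 0 in all 3 pericyte sums, Lcn2 at 0 in all 6, and Cp, Osmr, H2-D1 and Vim lie higher in pericytes than in astrocytes in every library.

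Among the filament genes, Gfap (11: 102887336-102900912 on GRCm38, minus strand) was at 21.9, 25.3 and 23.4 CPM in the astrocytes of libraries 1, 2 and 3, a mean of 23.6 ± 1.67 (SD, n = 3 libraries, as for all values by library). It was at 0 in the pericytes of all 3. A Gfap UMI was present in 15.4%, 17.9% and 16.4% of astrocytes, at most 12 in a cell, and in 0 of 2260 pericytes, which allows a share of up to 0.133%. The level was thus at least 91.1-fold higher in astrocytes, taking 3 counts over all pericytes as the floor. Thinned to 5000 UMIs per cell, so that depth no longer differed, 8.90% ± 0.547 of astrocytes and 0 of 1134 pericytes had a Gfap UMI. Intervals and floors here cover counting error only.

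Vim, the filament partner of Gfap in immature and reactive astrocytes (2: 13573927-13582826, plus strand), was at 13.6, 10.9 and 11.97 CPM in astrocytes and at 73.1, 63.6 and 68.7 CPM in pericytes. The groups did not overlap, and Vim was 4.86-fold lower in astrocytes (log2 fold change -2.28, SE 0.0815, adjusted p 7.78e-20). A Vim UMI was present in 682 of 8757 astrocytes, and a part of the Vim UMIs, less than the rest, lay in few barcodes. In libraries 1, 2 and 3, 29, 11 and 17 astrocyte barcodes with at least 5 UMIs of the cycling and progenitor genes Top2a, Mki67 and Sox11 held 171 of 495, 47 of 296 and 94 of 333 Vim UMIs. The same barcodes held 7 of 800, 3 of 686 and 5 of 652 Gfap UMIs. Without barcodes carrying these, endothelial or fibroblast markers, the difference in Vim was -2.71 on the log2 scale.

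The receptor gene Osmr (15: 6813577-6874969, minus strand) was at 8.91, 8.88 and 7.23 CPM in astrocytes and at 114, 122 and 113 CPM in pericytes, 12-fold lower in astrocytes (log2 fold change -3.59, SE 0.0776, adjusted p 5.38e-25). At matched depth 3.79% of astrocytes and 41.7% of pericytes had an Osmr UMI. Cd44, the hyaluronan receptor (2: 102811141-102901665, minus strand), was at 3.29, 2.98 and 1.73 CPM in astrocytes and at 2.04, 3.11 and 2.15 CPM in pericytes. These values overlapped, and the difference did not pass the test (log2 fold change 0.36, SE 0.335, adjusted p 0.326). With stricter gates it passed, at 0.93 and an adjusted p of 0.0268.

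The secreted members went both ways. C4b (17: 34728380-34743882, minus strand), which feeds the classical complement pathway, was at 28.9, 28.5 and 27.4 CPM in astrocytes and at 0.905, 0.565 and 1.07 CPM in pericytes, 37.9-fold higher in astrocytes (log2 fold change 5.24, SE 0.217, adjusted p 2.61e-18). It was present in 20.5% of astrocytes and in 10 of 2260 pericytes. Its near-identical copy C4a had 25 UMIs in astrocytes against 2589 of C4b, and reads that both genes share could not be told apart. Serpina3n (12: 104406729-104414329, plus strand) was at 3.84, 4.27 and 3.81 CPM in astrocytes and at 0 in the pericytes of all 3 libraries. It was at least 15.4-fold higher in astrocytes, in which 3.51% of cells had a UMI. The neighbouring paralogue Serpina3m had 4 UMIs in astrocytes, and Serpina3f, Serpina3g and Serpina3i had 0.

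Cp, the copper-carrying ferroxidase ceruloplasmin (3: 19957054-20009145, plus strand), was the reverse: 1044, 1101 and 1009 CPM in pericytes, in which 94.7% of cells had a UMI, and 1.21, 0.884 and 3.52 CPM in astrocytes (log2 fold change -8.96, SE 0.132, adjusted p 8.03e-29). The higher astrocyte value of library 3 was carried by few barcodes, since 7 astrocyte barcodes with at least 5 UMIs of fibroblast markers held 52 of its 98 Cp UMIs. Without barcodes carrying other markers the log2 fold change was -9.55. Timp1, an inhibitor of matrix metalloproteinases (X: 20870166-20874735, plus strand), had 4, 4 and 2 UMIs in astrocytes and 7, 2 and 4 in pericytes, and was not tested. Lcn2, an iron-siderophore binding protein (2: 32384633-32388252, minus strand), had 0 UMIs in all 13546 barcodes, which allows a share of up to 0.0343% of astrocytes with a UMI.

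H2-D1, a classical MHC class I heavy chain (17: 35262730-35267499, plus strand), was at 186, 185 and 194 CPM in pericytes and at 5.95, 4.86 and 6.80 CPM in astrocytes. It was 27.7-fold lower in astrocytes (log2 fold change -4.79, SE 0.0741, adjusted p 2.41e-28). Its close relative H2-K1 differed far less, with 49.3 ± 1.22 CPM in astrocytes and 87.3 ± 2.61 CPM in pericytes (log2 fold change -0.61, SE 0.0624, adjusted p 1.04e-09), and reads shared by the 2 genes could not be assigned.

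The wider reactive programmes were also split. Beside a median log2 fold change of 0.10 over all genes, the pan-reactive list had a median of -2.93, with 3 of 10 tested genes higher in astrocytes (Gfap, Serpina3n and Aspg) and 6 lower (among them Hspb1, Steap4 and S1pr3). The list described for neurotoxic astrocytes had 2 of 11 higher (Fbln5 and Fkbp5) and 8 lower, with a median of -3.96. Of the MHC class I and antigen processing list 1 of 11 was higher (Nlrc5) and 10 were lower, median -2.42. Among complement genes C4b was higher and C1ra, C1s1 and Serping1 were lower.

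Signalling genes around Osmr differed in both directions. Of 9 gp130 and STAT3 genes 2 were higher in astrocytes, the receptor subunits Lifr (log2 fold change 1.39) and Cntfr (5.91), and 7 were lower, among them the shared subunit Il6st (-1.59), Jak1 (-0.84), the feedback inhibitor Socs3 (-3.05) and Stat3 (-0.30), with a median of -0.84. Of 6 filament and linker genes Gfap was higher and Vim, Nes, Synm and Des were lower, median -1.82. The protective-type list had 2 of 6 higher (S100a10 and Ptx3) and 2 lower (Cd14 and Tm4sf1), median 0.09. The protoplasmic astrocyte list had 8 of 8 higher, median 6.29, and the fibrous and limitans list 6 of 11 higher and 5 lower, median 1.08. Over all genes 42.8% were called higher and 36.9% lower. The protoplasmic list is made of astrocyte genes and includes the gating genes Slc1a2 and Slc1a3, left out of the test. Its direction against pericytes was thus largely fixed in advance, and these counts do not tell which kind of astrocyte was sampled. Medians were the same with Gfap, Serpina3n and Ptx3, at 0 in pericytes, set at their bounds.

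Within astrocytes, the next comparison asked which genes accompanied a Gfap UMI when depth was equal. Of 7767 astrocytes with at least 5000 UMIs, each thinned to 5000, 688 (8.86%) had a Gfap UMI: 270 of 3144, 215 of 2256 and 203 of 2367 in libraries 1, 2 and 3. Most of these, 581, had exactly 1 Gfap UMI, 76 had 2 and 31 had 3 or more, so Gfap-negative cells at this depth include cells that contain Gfap RNA. Gfap-positive cells differed from the rest in ways other than Gfap. Their median depth before thinning was 11154, 11656 and 10821 UMIs against 10194, 10758 and 10466, and their share of ribosomal protein UMIs was 1.67%, 1.53% and 1.49% against 1.37%, 1.23% and 1.25%. Malat1, a nuclear RNA, took 9.04%, 9.22% and 8.89% of their UMIs against 9.51%, 9.80% and 9.37%. Their mitochondrial share was 2.23%, 2.48% and 2.25% against 2.15%, 2.13% and 2.17%. Oligodendrocyte markers summed to 112, 94.9 and 123 CPM against 95.8, 90.7 and 93.2. The sums of oligodendrocyte precursor, neuron, pericyte and fibroblast markers were lower in Gfap-positive cells of every library. The part of these differences in the results below was not tested beyond the stratified fit given with them.

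Gfap-positive astrocytes carried more C4b in every library, and less clearly more Osmr. C4b was present in 17.8%, 15.3% and 16.3% of Gfap-positive and in 11.4%, 11.7% and 10.95% of Gfap-negative cells of libraries 1, 2 and 3. The groups did not overlap, and on sums per library C4b was 1.52-fold higher (log2 fold change 0.60, SE 0.138, adjusted p 0.00384). Over all genes 746 of 12864 tested (5.8%) were called, 457 higher (3.55%) and 289 lower (2.25%), with a median of 0.00. Of the 7 members tested, C4b and Osmr were called and 5 were not. Leaving out library 1, C4b was at 0.55 with an adjusted p of 0.101, and within 3 strata of the ribosomal protein share it was at 0.59 with an adjusted p of 0.0760.

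Osmr was present in 6.67%, 6.98% and 4.43% of Gfap-positive against 3.76%, 3.63% and 3.33% of Gfap-negative cells of libraries 1, 2 and 3. It was 1.77-fold higher (log2 fold change 0.82, SE 0.258, adjusted p 0.0460), but did not pass without library 1 (adjusted p 0.485) or library 2 (0.151). Because each cell's 5000 UMIs are a random draw, the comparison was repeated on 5 other draws, chosen after the data were seen. C4b passed in 6 of 6 draws with log2 fold changes from 0.59 to 0.77. Osmr passed in 2 of 6, from 0.36 to 1.00, and its adjusted p lay between 0.00352 and 0.628, so its call depended on the draw. Vim did not pass in any (0.14 to 0.59), although it was present in 5.56%, 7.91% and 7.39% of Gfap-positive against 4.45%, 4.02% and 4.11% of Gfap-negative cells.

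The other members showed no difference larger than their error at this depth. Serpina3n was present in 1.70% ± 0.455 of Gfap-positive and 1.75% ± 0.107 of Gfap-negative cells (log2 fold change 0.28, SE 0.440). H2-D1 was present in 2.38% ± 2.03 and 2.64% ± 0.720 (-0.30, SE 0.422), Cd44 in 1.31% ± 0.768 and 1.08% ± 0.443 (0.30, SE 0.563) and Cp in 0.803% ± 0.747 and 0.707% ± 0.416 (-0.23, SE 0.720). With so few positive cells these values do not separate no difference from a sizeable one. Timp1 did not pass the filter on low counts.

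**Figure D2:**
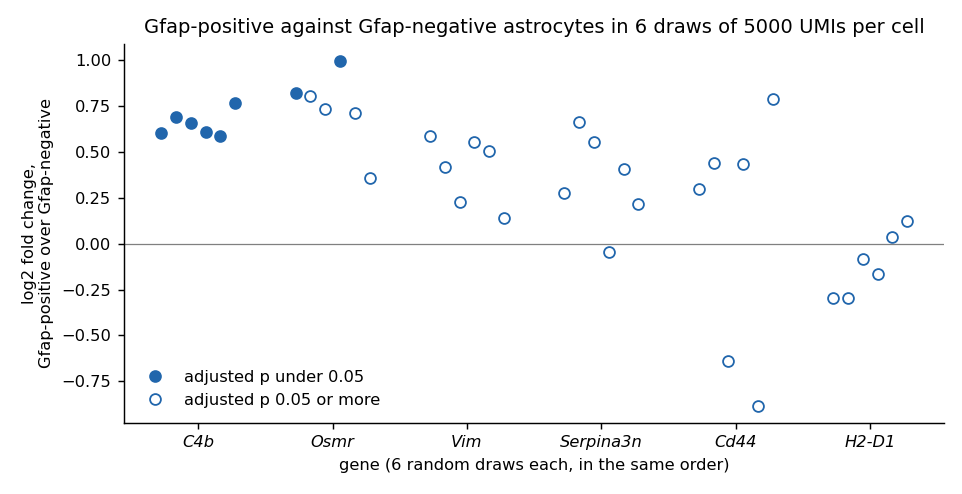
Log2 fold change between Gfap-positive and Gfap-negative astrocytes (y axis) for 6 members (x axis) in 6 random draws of 5000 UMIs per cell, with filled points where the adjusted p was under 0.05. C4b lies between 0.59 and 0.77 and is filled in 6 draws, Osmr is filled in 2, and Cd44 lies on both sides of 0.

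Cells with more Gfap UMIs carried some of these genes more often, which is a description of few cells in the first draw with no test. C4b was present in 11.3% of 7079 cells with no Gfap UMI (95% Wilson interval 10.6 to 12.1), in 14.6% of 581 with 1 (11.99 to 17.7), in 25.0% of 76 with 2 (16.6 to 35.8) and in 32.3% of 31 with 3 or more (18.6 to 49.9). Vim was present in 4.22%, 5.51%, 7.89% and 29.0% of these cells, the last with an interval from 16.1 to 46.6. Osmr was not ordered in the same way, with 3.59%, 6.02%, 2.63% and 16.1%. Serpina3n stood at 1.74%, 1.72%, 1.32% and 3.23%, the last being 1 cell.

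**Figure D3:**
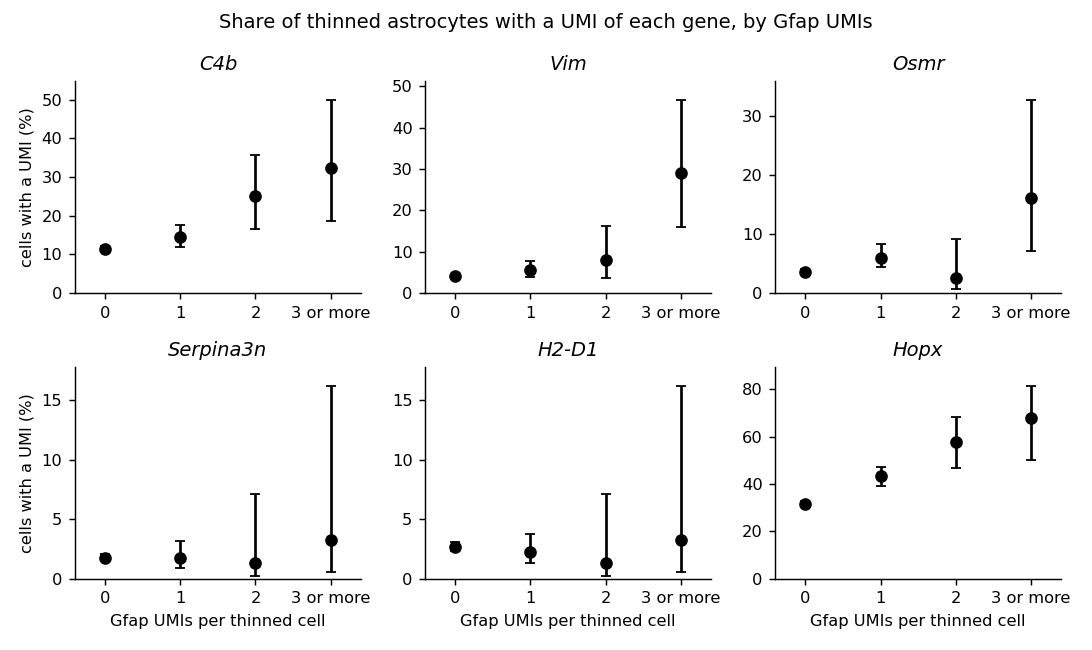
Share of thinned astrocytes with a UMI of each gene (y axis, %, with 95% Wilson intervals) by the number of Gfap UMIs in the cell (x axis; 7079, 581, 76 and 31 cells). C4b runs from 11.3% to 32.3% and Hopx from 31.8% to 67.7%, whereas the intervals of Serpina3n and H2-D1 overlap across all 4 classes. All values are from the first draw.

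Co-detection was also counted for pairs among the members. The pairs with Gfap use the same cells and draw as the shares by Gfap status above, so their ratios restate those shares and are no second result. All pair counts come from the first draw, in which the log2 fold change of Vim was the highest of 6 draws (0.59, lowest 0.14). That of Osmr was 0.82 in the first draw, in a range from 0.36 to 1.00. The ratios were not repeated on the other draws. In thinned astrocytes, 114 cells held both Gfap and C4b where the product of their shares gave 81.3, a ratio of 1.40 (1.49, 1.28 and 1.43 by library). The ratio was 1.60 for Gfap with Osmr (42 cells; 1.66, 1.77 and 1.30) and 1.53 for Gfap with Vim (47 cells; 1.22, 1.80 and 1.68). These 3 pairs were above 1 in 3 of 3 libraries in this draw. Gfap with Serpina3n stood at 1.00 (12 cells), with Cd44 at 1.17 (9 cells) and with H2-D1 at 0.834 (15 cells).

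Among pairs without Gfap, Osmr with C4b was at 1.26 (44 cells) and above 1 in 3 of 3 libraries. The same held for Osmr with H2-D1 at 1.68 (13 cells) and Vim with Cp at 3.05 (7 cells). No other astrocyte pair without Gfap was above 1 in 3 of 3 libraries, and most of the pairs examined were not. The ratios were not tested. Among this many pairs some would lie above 1 in 3 of 3 libraries by chance alone, so this count is no evidence of co-expression. Serpina3n with C4b was at 1.57 (25 cells) but at 0.947, 1.71 and 2.24 by library, so that library 1 went the other way, and Vim with Osmr was at 0.834 (11 cells). Cp pairs rested on at most 7 cells. In 1134 thinned pericytes the frequent members were met together about as often as their shares give: Vim with Osmr at 0.918 (100 cells), Osmr with H2-D1 at 1.00 (273 cells) and Cp with H2-D1 at 1.01 (641 cells). All pairs share the same cells and their total of 5000 UMIs.

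**Figure D4:**
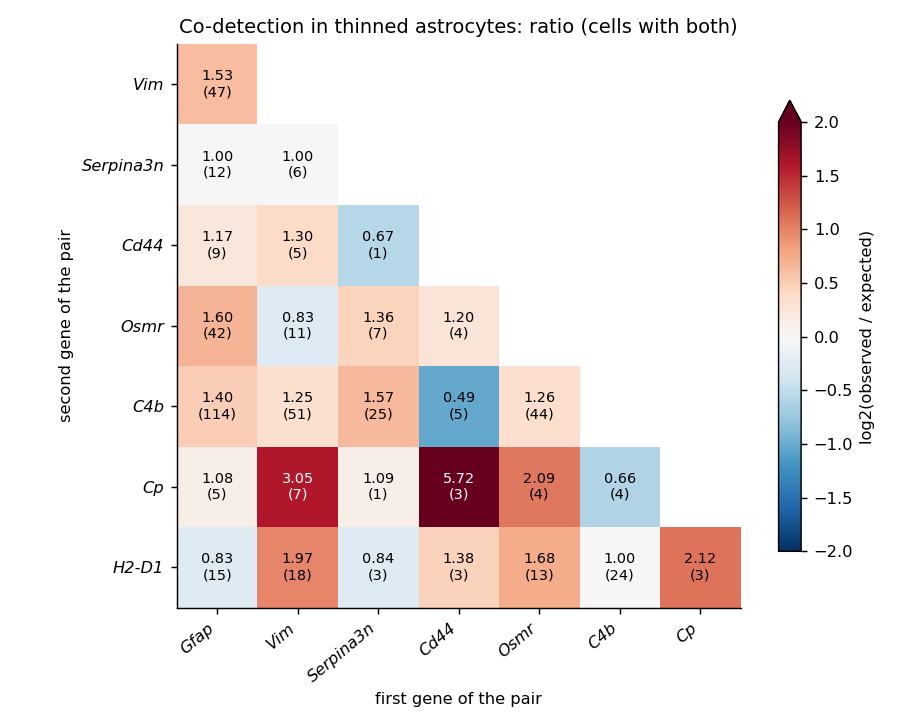
Cells with a UMI of both genes divided by the number given by the product of their shares, for pairs of 8 members in 7767 thinned astrocytes (colour, log2 scale capped at 2; number of cells with both in brackets). Gfap pairs with Osmr (1.60), Vim (1.53) and C4b (1.40) lie above 1 and Gfap with Serpina3n lies at 1.00. All values are from the first draw.

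The genes whose pattern was most like that of Gfap were ranked among called genes with the same direction in 3 of 3 libraries and a UMI in at least 5% of thinned astrocytes. The list was led by Hopx, a homeodomain protein without DNA binding, present in 39.3%, 57.2% and 42.9% of Gfap-positive against 31.2%, 32.7% and 31.6% of Gfap-negative cells (log2 fold change 0.87, SE 0.0805, adjusted p 5.43e-10). Among the next were 2010320M18Rik, Dmap1, Prxl2b, the annexin partner S100a10 (0.68), Aprt, Pop7, Coa6, Rhoc, Chpf and C4b. Of those named here, Hopx and C4b were called in 6 of 6 draws, S100a10 in 4, Rhoc in 2 and the other 7 in 1. The 6 with the largest negative changes, Dipk2a, Tor3a, Foxred1, Lrrc7, Eri2 and Hsf3 (-0.99 to -0.87), were called in at most 2 of 6 draws. A rank from 1 draw was thus a weak guide beyond the first few genes.

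A set of 189 genes was called in all 6 draws. Chosen from it after their values were seen, the genes higher in Gfap-positive cells included the glycolytic enzyme Aldoc (0.37), the metallothioneins Mt1 (0.37) and Mt2 (0.35), the fatty acid binding protein Fabp7 (0.51), the lipid carriers Apoe (0.24) and Clu (0.24), the angiopoietin Angpt1 (0.54) and Igfbp2 (0.31). Also higher were many respiratory chain and ATP synthase genes, among them Cox6b1 (0.40), Atp5o (0.40) and Ndufa4 (0.31), and the widely expressed Gapdh (0.37), Actb (0.35) and Ubb (0.32). Lower were the G protein regulator Rgs6 (-0.64), the receptor Erbb4 (-0.43) and Kcnip4 (-0.59). The named genes are thus no summary of the set. Called genes also differed in kind. The 457 higher genes had a median gene length of 7033 bp and included 56 of the 90 ribosomal protein genes tested, and the 289 lower genes had a median length of 235712 bp, against 24885 bp over all tested. Within the 3 strata of the ribosomal protein share, added after seeing the data, 11 genes were called in place of 746.

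By list, 6 of 9 fibrous and limitans genes tested were higher in Gfap-positive cells and none was lower, beside 3.55% of all genes called higher, with a median log2 fold change of 0.38 beside 0.00 over all genes. They were the inhibitors of differentiation Id3 (0.52) and Id1 (0.46), the tetraspanin Cd9 (0.38), S100a6 (0.35), Fbxo2 (0.26) and the water channel Aqp4 (0.22). Id3, Cd9 and Aqp4 were called in 6 of 6 draws, S100a6 and Fbxo2 in 5 and Id1 in 4. Within the strata of the ribosomal protein share 5 genes in all were called higher, so not all 6 kept their call there. Which of them did is not given here. Of the 10 protoplasmic genes Mfge8 was higher (0.15) and Gpc5 lower (-0.20), with a median of 0.05. Gpc5 was called in 6 of 6 draws and Mfge8 in 5. Gja1 (0.10) and Gjb6 (0.10), not called in the first draw, were called in 4 and 2 of 6. The difference in calls between the 2 lists thus depended in part on the draw.

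In the reactive lists, Osmr was the 1 call among 6 pan-reactive genes tested (median 0.29) and among 7 gp130 and STAT3 genes (median 0.04), where Stat3 itself had a log2 fold change of 0.36 and an adjusted p of 0.0549. None of 5 neurotoxic-type genes (median -0.30), 7 MHC class I genes (median -0.02) or 3 filament genes (median 0.24) was called, against 5.8% of all genes. S100a10 was the 1 protective-type gene tested, and C4b the 1 complement gene.

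The 4 groups were compared over mice. Astrocytes carried little hashtag signal, with a median of 4 UMIs of the top hashtag and 2 of the next against 18 and 3 in pericytes, and a top hashtag of at least 10 UMIs and at least 3 times the next gave a mouse to 335 astrocytes (3.83%) and 1024 pericytes (45.3%). Of the 16 mice, 9 had at least 10 such astrocytes (10 to 159, 302 in all). None of the 10 genes passed the filter on low counts in these sums, and 2 of 3070 genes tested (0.0651%) were called for any difference among groups, Myoc and Aldh1a1 (109 at an unadjusted p under 0.05). Measured from NoFC, the called share was 0.0651% in FC, 0.0977% in NoFR and 0.0326% in FR mice, and it was 0 in the 3 pairs without NoFC.

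Gfap in these astrocytes was at 77.5 and 160 CPM in the NoFC mice. FC mice stood at 22.8 and 6.99 CPM, NoFR mice at 32.6, 7.90 and 47.0 and FR mice at 22.3 and 20.6. Both NoFC mice lay above the rest, but without the filter on low counts the test of any difference gave an adjusted p of 0.288. The NoFC values rested on 3 cells. All 27 Gfap UMIs of the 26 NoFC astrocytes were in 3 barcodes, with 7, 12 and 8, and the other 23 had 0. These 3 were also the only ones of 8757 astrocytes with at least 5 UMIs of Myoc, which encodes the secreted glycoprotein myocilin and marks astrocytes of the glia limitans (73, 11 and 8 UMIs), and they held 18 of the 20 C4b UMIs of the NoFC astrocytes. These barcodes were left out after the data were seen, which took every Gfap UMI from the NoFC astrocytes. The fit without them was thus bound to lose the NoFC excess in Gfap and is no evidence on it. In that fit 0 of 3065 genes were called by edgeR (115 at an unadjusted p under 0.05). Gfap, tested there without the filter, had an adjusted p of 0.996.

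With a looser hashtag rule, at least 5 UMIs and 2 times the next, all 16 mice entered with 1402 astrocytes. FC mouse 1 held 535 of them and FR mouse 3 held 313, whereas the median over mice was 41.5. Pericytes under the stricter rule were spread more evenly, with 36 to 110 per mouse. The looser cut lies close to the astrocyte medians of 4 UMIs for the top hashtag and 2 for the next. Whether astrocytes were given the wrong mouse was not tested. The Gfap level of NoFC mice was 30.3, 5.78, 34.7 and 13.9 CPM and that of FC mice 24.1, 30.3, 30.4 and 20.7. NoFR mice stood at 15.7, 21.2, 26.9 and 60.7 CPM and FR mice at 8.27, 36.3, 24.6 and 17.1. All 4 groups overlapped. Mean C4b was 33.4 ± 6.49 CPM for FR, 26.0 ± 8.76 for NoFR, 34.1 ± 13.7 for FC and 32.7 ± 24.5 for NoFC mice (SD, n = 4 each). By edgeR 0 of 6953 genes were called for any difference (178 at an unadjusted p under 0.05), and neither Gfap (adjusted p 1.0) nor another member passed.

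The share of Gfap-positive astrocytes at matched depth was likewise not separable between groups. Under the stricter rule it was 9.35% and 0% in 2 FC mice, 8.33% and 0% in 2 NoFR mice and 8.11% and 8.33% in 2 FR mice, and no NoFC mouse had 10 cells of this depth. The 3 pairs that could be compared had p = 1.0 in exact two-sided permutation tests, whose smallest possible p is 0.333. Under the looser rule it was 13.9% ± 3.58 in FC (n = 4), 9.64% ± 4.03 in NoFR (n = 3), 8.96% ± 3.98 in FR (n = 4) and 6.70% ± 4.83 in NoFC (n = 4). FC was 7.24 points above NoFC (exact permutation p 0.0571, adjusted over 6 pairs 0.343), and the groups overlapped. FC mouse 1 gave 479 of the 585 FC cells counted here and FR mouse 3 gave 273 of the 341 FR cells.

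Pericytes gave deeper sums, with all 16 mice and 36 to 110 cells each. Across the 4 groups 42 of 6543 genes tested (0.642%) were called, and 0 of the 4 members that passed the filter, with adjusted p of 0.881 for Vim, 0.892 for Osmr, 0.913 for Cp and 0.956 for H2-D1. Over the 6 pairs of groups 0 of 24 member comparisons were called, beside 1.07% of all genes for NoFR against NoFC, 0.443% for NoFR against FC, 0.0917% for FR against NoFR and 0 for the other 3. The smallest adjusted p, 0.721, was that of Osmr between NoFR and FC. The Osmr level of NoFC mice was 82.6, 94.9, 132 and 115 CPM and that of FC mice 103, 97.2, 118 and 70.2. NoFR mice stood at 118, 149, 117 and 105 CPM and FR mice at 115, 137, 125 and 97.0. These overlapped, and NoFR exceeded FC by 0.41 on the log2 scale (SE 0.217).

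Means for the other members in pericytes, in the order NoFC, FC, NoFR and FR, were 86.4, 59.5, 84.7 and 79.0 CPM for Vim, 1003, 1147, 1018 and 1106 for Cp and 215, 176, 195 and 191 for H2-D1. Every group overlapped every other for each of the 3. Gfap stayed at 0 in all 16 mice. Other genes were called in the same sums. The transcription factor Zbtb16 had a mean of 12.6 CPM in NoFR against 129 for NoFC, 155 for FC and 82.8 for FR mice, and Rasl11a one of 109 against 23.6, 41.8 and 43.3. In both, NoFR mice did not overlap the other groups. The circadian factors Dbp and Tef and the thiol reductase Ifi30 were also called, with their lowest mean in NoFR. Of the pan-reactive list 1 of 6 tested, the heat shock protein Hspb1, was called (means of 484, 366, 281 and 319.6 CPM in the same order, adjusted p 0.0285), and of the neurotoxic-type list 1 of 5, the glucocorticoid-responsive Fkbp5 (44.4, 46.2, 13.1 and 30.5, adjusted p 0.0469).

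**Figure D5:**
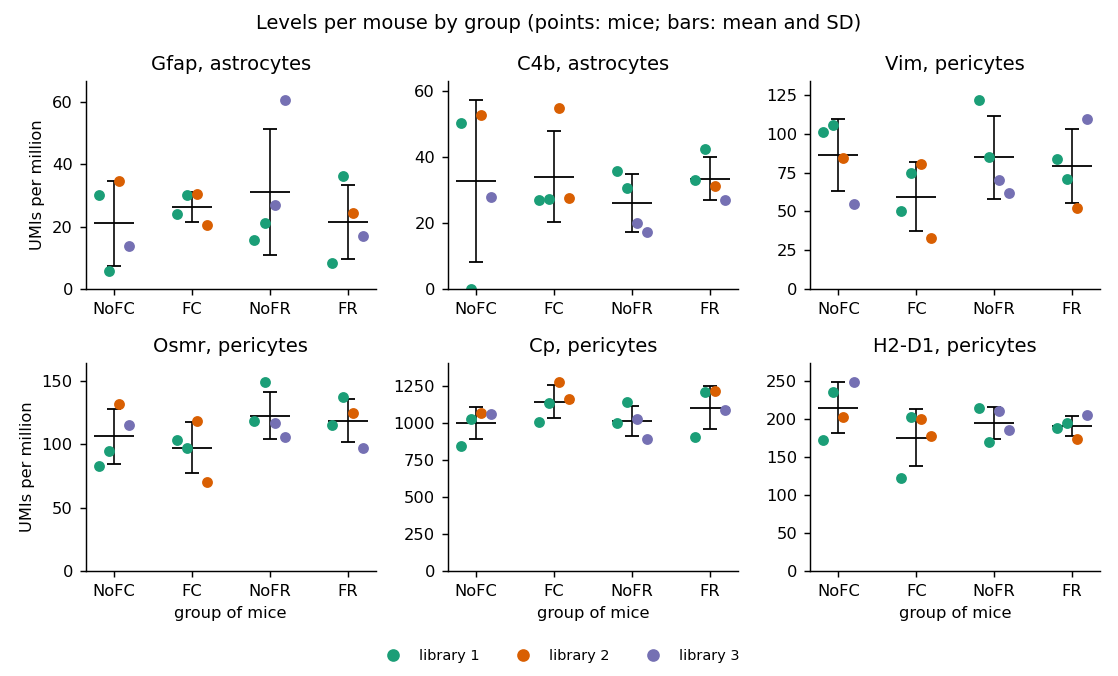
Level per mouse (y axis, CPM) in the 4 groups (x axis) for Gfap and C4b in astrocytes under the looser hashtag rule and for Vim, Osmr, Cp and H2-D1 in pericytes; points are mice, coloured by library, and bars are the mean and SD of 4 mice. The 4 groups overlap in every panel.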

How the data were processed

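The 3 pooled 10x libraries were counted by the authors with Cell Ranger on mm10 (version 3.0 in the submitters' notes and methods, 7.0.0 in the deposited matrix header); the deposited values are raw UMI counts per gene or hashtag and barcode, and all barcodes were used. The hashtag table deposited by the authors gave mouse, group and library. Coordinates are from GENCODE vM21 on GRCm38. Here classes were gated, UMI counts were summed per library or mouse, and sums were tested with edgeR 4.0.16 (quasi-likelihood, TMM, filterByExpr, Benjamini-Hochberg over all genes tested) in R 4.3.3, with library as a block or covariate; DESeq2 1.42.0 was an alternative. The 4 gating genes, or Gfap, were left out of the tables tested on them. Cells were thinned without replacement to 5000 UMIs, with a seed per cell; an earlier draw with 1 seed per library was kept as the 6th of 6. Named genes were the 10 members, the 12 highest and 6 lowest called genes by Gfap status, up to 5 called genes per class among groups and up to 4 genes of each of 9 lists, by level in astrocytes; other genes named were chosen after their values were seen, and some genes are not reported here. Members, lists and rules were chosen with earlier results of these data known. The fits were tested on simulated data. Depth ranged from 31700569 to 42350059 gene UMIs per library.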

Additional observations from a re-analysis of the deposited data

Results flagged for a closer look

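Among 35 sets of 4 mice examined, 1 held a mouse far from the other 3, where chance gives about 1 in 20: C4b in astrocytes under the looser hashtag rule stood at 54.7 CPM in FC mouse 3, 9 UMIs in 16 cells, against 26.9 to 27.6 CPM in the other FC mice.

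Barcodes that met neither gate, which entered no comparison, also held member UMIs: 94 of 2529 had a Gfap UMI, 62 a Vim UMI, 12 a Serpina3n UMI, 12 a Cd44 UMI, 104 an Osmr UMI, 102 a C4b UMI, 270 a Cp UMI and 110 an H2-D1 UMI, each above a floor of 3 counts. Lcn2 was at 0 there too.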

How the results depend on the processing

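Of 409 values under alternative settings, 350 were counted as the same and 19 reversed, and the cause was not tested for any. For a fold change or a difference in share, the same meant an unchanged direction and side of the threshold. For an adjusted p alone it meant the side, and for a count of called genes a value within a fixed fold of the main one. The 4 groups share replicate numbers only as names. No paired analysis was possible because those numbers tie no mouse of one group to a mouse of another; library was the block where classes or Gfap status were compared. Between astrocytes and pericytes, 3623 of 5530 genes tested were called with sums per mouse, against 12230 of 15361 in the main fit. Vim, Osmr, Cp and H2-D1 kept their calls there. Gfap, Serpina3n, C4b and Cd44 had no value in that setting.

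By Gfap status, DESeq2 called 411 genes, thinning to 3000 UMIs 297, thinning to 8000 UMIs 1248, no thinning 1648, at least 2 Gfap UMIs 255, and strata of the ribosomal protein share 11. DESeq2 gave no adjusted p for C4b, Osmr or any other member by Gfap status, so their calls were not checked there. Leaving out a library gave 277 called genes (without library 1) to 692 (without library 3). Vim passed with 3000 UMIs, at 1.38 (adjusted p 0.00170), and Osmr failed under 10 settings (adjusted p 0.0519 to 0.719). Leaving out a library, Serpina3n lay between -0.35 and 0.49, Cd44 between -0.22 and 0.97 and H2-D1 between -1.10 and 0.44. Reversed values, none past the threshold, were Serpina3n at -0.047 (draw 4), Cd44 at -0.64 (draw 3) and -0.88 (draw 5), Cp at 0.23 (without barcodes with other markers) and 0.05 (stricter gates), and H2-D1 at 0.036 (draw 5), 0.12 (draw 6) and 0.17 (8000 UMIs).

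Between groups in astrocytes, 7 genes were called without a filter on low counts, 1 without a library term, 1 with at least 5 cells per mouse, 55 with stricter gates and 0 with the looser hashtag rule. Without the 3 Myoc barcodes, left out after the data were seen, it was 0, or 6 with no filter. Leaving out 1 mouse gave 1 to 74, the last without NoFC mouse 1; it was 41 without NoFC mouse 3 or NoFR mouse 3 and 43 without FR mouse 3 or 4. In pericytes it was 92 without a filter, 25 with DESeq2 and 27 (without NoFC mouse 4) to 56 leaving out 1 mouse. The difference in the share of Gfap-positive astrocytes, in points, reversed for NoFR minus FC (1.27 in draw 3), FR minus FC (-4.99 with the looser rule, -0.360 with at least 2 Gfap UMIs) and FR minus NoFR (-0.679 with the looser rule). Leaving out 1 mouse gave -5.19 to 4.17, -1.13 to 8.22 and -0.113 to 8.22 for these 3 pairs. The few astrocytes per mouse limit every comparison of groups in astrocytes.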
